A study of Caenorhabditis elegans with 6 samples.

Results

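The 10 genes dbl-1, daf-7, lon-2, daf-4, sma-6, daf-1, sma-2, sma-3, sma-4 and lon-1 of *Caenorhabditis elegans* carry the TGF-beta signals that set body size and prevent dauer arrest. They were chosen by name, as all probe sets whose annotated gene symbol is one of the 10, and were compared between alg-1(gk214) mutants and the N2 wild type. All 10 genes were measured, by 16 of the 22548 probe sets tested (10 of 17118 genes with a probe set of their own). Of the 16, 6 carry the ending _s_at, which marks probes that match more than 1 transcript, both dbl-1 and both sma-2 probe sets among them. Both groups were whole worms at larval stage L4, synchronized and grown at 25 °C on OP50 bacteria, with 3 arrays each that the labels call independent replicates. The mutants carry the gk214 allele of alg-1, a gene for an Argonaute protein that works with microRNAs, and N2 carries no mutation named in the labels. Whole-worm RNA cannot tell fewer cells of a type from less RNA per cell.

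The worm has a pair of TGF-beta pathways that share parts. In the body size pathway, the BMP-like ligand DBL-1, made mainly by neurons, binds the type II receptor DAF-4 and the type I receptor SMA-6, largely on the epidermis, and the Smads SMA-2, SMA-3 and SMA-4 carry the signal to the nucleus. In the dauer pathway, the ligand DAF-7, made by the ASI pair of sensory neurons when food is plentiful, acts through DAF-4 and the type I receptor DAF-1 to promote reproductive growth. LON-2, a glypican, holds back DBL-1, and lon-1 encodes a secreted protein that limits body length and whose transcript is known to be lowered by DBL-1 signalling.

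Values are the authors' log2 signals for each probe set, and a change is the mutant mean minus the wild type mean on that scale, with its standard error (SE). Changes were tested with limma over all 22548 probe sets, two-sided, and a change passed at a Benjamini-Hochberg adjusted p under 0.05. Signals of different probe sets are not on a common scale, so levels are compared between groups only, never between genes.

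Of the 16 probe sets, 7 were higher in the mutant, 0 were lower and 9 did not pass. Over all probe sets tested, 14.8% were higher and 18.9% lower. At an unadjusted p under 0.05 the counts were 10 higher and 0 lower. The share of all probe sets was not computed at that threshold, so these counts have no background to be read against. The 7 that passed belonged to 7 different genes, namely both ligands, lon-2, all 3 receptors and lon-1, and no Smad probe set passed. All 3 mutant arrays lay above all 3 wild type arrays for 9 of the 16, which occurred in 19.7% of all probe sets, and the reverse occurred for 0 of the 16, against 28.3%. The median change was 0.23 over the 16 probe sets, with a median of −0.05 over all. Whether ligands and receptors differ from Smads in their response was not tested.

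**Figure D1:**
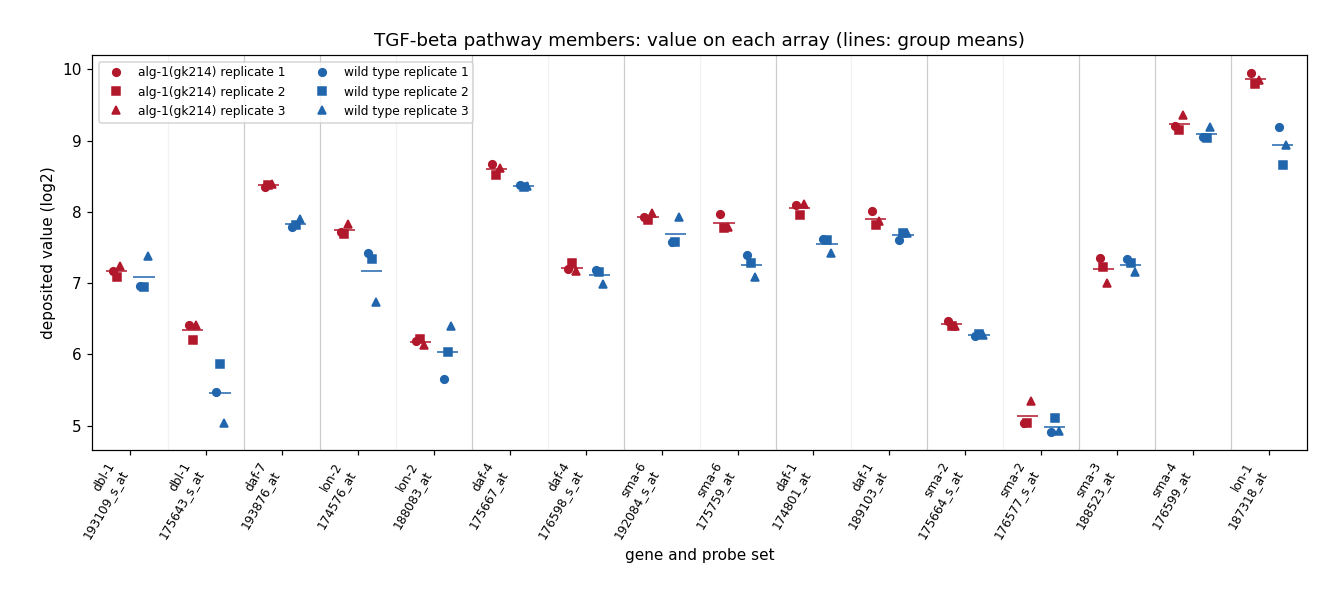
Deposited log2 value of each member probe set on each array, mutant left of wild type, with marker shape giving the replicate and a line the group mean. For daf-7, lon-1 and daf-1 174801_at the mutant and wild type arrays stand clear of each other, while wild type replicate 3 lies apart from the other wild type arrays for lon-2 174576_at, dbl-1 193109_s_at and sma-6 192084_s_at.

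Wild type replicate 3 stood apart on some quality measures, most clearly in the GAPDH and actin controls. For the GAPDH control transcript, the 3′ minus 5′ difference (log2) lay between −0.22 and −0.14 on the mutant arrays, and was −0.23, −0.23 and −0.58 for wild type replicates 1, 2 and 3. Wild type replicate 3 was also the lowest array for this difference in the actin (−0.20) and gly14 (−1.20) controls, but not in the ubiquitin and catalase controls. For gly14, mutant replicate 3 was close (−1.13), and for catalase wild type replicate 1 was the highest array (1.15). The median deviation of a probe set from its group mean ranged from 0.048 to 0.052 log2 across mutant arrays, whereas it was 0.076, 0.064 and 0.082 for wild type replicates 1, 2 and 3. Without wild type replicate 3, 8 of the 16 member probe sets were higher and 0 lower, where 15% of all probe sets were higher and 17.6% lower. The mutated gene itself was lower in the mutant by 2 of its 3 probe sets, with changes of −0.73 (adjusted p = 0.000245), −0.62 (adjusted p = 0.00977) and −0.10 (adjusted p = 0.748). Where these probes lie with respect to the deleted stretch was not known here, so they check the genotype only in part.

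Among the ligands, daf-7 gave the tighter result. Its single probe set, 193876_at, read 8.36, 8.38 and 8.40 on the mutant arrays, against 7.79, 7.82 and 7.90 on the wild type arrays. The groups did not overlap, and the lowest mutant array lay well above the highest wild type array. The means were 8.38 ± 0.02 in the mutant and 7.84 ± 0.06 in the wild type (SD, n = 3 each), a change of 0.54 (SE 0.068, limma adjusted p = 0.000383), or 1.46-fold. Leaving out any 1 array kept the change between 0.52 and 0.58.

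The DBL-1 ligand gene had probe sets that gave different answers. The dimmer, 175643_s_at, read 6.42, 6.20 and 6.42 in the mutant, against 5.47, 5.86 and 5.04 in the wild type. All mutant arrays were higher, though the wild type arrays were widely spread. The change was 0.89 (SE 0.18, limma adjusted p = 0.00509), or 1.85-fold. The brighter, 193109_s_at, read 7.17, 7.09 and 7.24 in the mutant, against 6.96, 6.94 and 7.38 in the wild type, and the groups overlapped because wild type replicate 3 exceeded every mutant array. Its change was 0.08 (SE 0.12, adjusted p = 0.669), with a 95% interval of −0.20 to 0.35. Wild type replicate 3 was therefore the highest wild type array on one dbl-1 probe set and the lowest on the other. Without it the changes were 0.68 for 175643_s_at (adjusted p = 0.00573) and 0.22 for 193109_s_at (adjusted p = 0.0554). The mean of both probe sets rose by 0.48 (SE 0.083, limma adjusted p = 0.00205 over 17118 genes). That mean joins unlike changes of 0.89 and 0.08. On wild type replicates 2 and 3 the 2 probe sets deviated in opposite directions, which cancelled in the mean and left its SE below that of either. The mean therefore does not resolve their disagreement.

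The glypican gene lon-2 showed the same divergence. Its brighter probe set, 174576_at, read 7.71, 7.69 and 7.84 in the mutant, against 7.42, 7.34 and 6.74 in the wild type. All mutant arrays were higher, with wild type replicate 3 lowest. The change was 0.58 (SE 0.16, limma adjusted p = 0.0227), and it was 0.37 without wild type replicate 3 (adjusted p = 0.00898). This call was lost when any 1 mutant array was left out, with adjusted p-values of 0.0624, 0.0532 and 0.0863 without mutant replicates 1, 2 and 3. The dimmer probe set, 188083_at, read 6.18, 6.21 and 6.13 in the mutant, against 5.65, 6.03 and 6.40 in the wild type. The groups overlapped, the mutant arrays lying inside the wild type range, and wild type replicate 3 was here the highest array. The change was 0.15 (SE 0.16, adjusted p = 0.531), with a 95% interval of −0.22 to 0.51, and 0.33 without that array (adjusted p = 0.0591).

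All 3 receptor genes had a probe set that rose. For daf-1, the type I receptor of the dauer pathway, 174801_at read 8.09, 7.96 and 8.11 in the mutant, against 7.62, 7.61 and 7.42 in the wild type. The groups were well separated, and the change was 0.50 (SE 0.083, limma adjusted p = 0.00188), or 1.41-fold. The other daf-1 probe set, 189103_at, read 8.01, 7.81 and 7.87 in the mutant, against 7.60, 7.71 and 7.71 in the wild type. The groups did not overlap here either, but the change of 0.22 (SE 0.078) fell short of the threshold (adjusted p = 0.0544). It passed after centring each array on its median (0.23, adjusted p = 0.0407) and after a filter on dim probe sets at the median (adjusted p = 0.0409). It did not pass with quantile normalization (0.18, adjusted p = 0.0988) or with the replicate number as a block (adjusted p = 0.0819). Nor did it pass when any 1 array was left out, with adjusted p from 0.0624 to 0.199.

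For sma-6, the type I receptor of the body size pathway, 175759_at read 7.98, 7.77 and 7.79 in the mutant, against 7.39, 7.28 and 7.09 in the wild type. All mutant arrays were higher, and the change was 0.59 (SE 0.098, limma adjusted p = 0.00171), or 1.51-fold. The slightly brighter 192084_s_at read 7.93, 7.89 and 7.99 in the mutant, against 7.58, 7.57 and 7.93 in the wild type. Wild type replicates 1 and 2 lay clearly below the mutant, while wild type replicate 3 reached the mutant range. The change was 0.24 (SE 0.10, adjusted p = 0.105), and without that array it was 0.36 and passed (SE 0.069, adjusted p = 0.00623).

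The type II receptor gene daf-4, whose protein serves both ligands, changed least among the receptors that passed. Its brighter probe set, 175667_at, read 8.67, 8.52 and 8.61 in the mutant, against 8.38, 8.35 and 8.36 in the wild type. The groups did not overlap, with the wild type arrays nearly equal. The change was 0.24 (SE 0.070, limma adjusted p = 0.0294), or 1.18-fold. It no longer passed without mutant replicate 1 (adjusted p = 0.12), mutant replicate 3 (adjusted p = 0.0941) or wild type replicate 2 (adjusted p = 0.0732). The second probe set, 176598_s_at, read 7.20, 7.29 and 7.17 in the mutant, against 7.18, 7.16 and 6.99 in the wild type. These overlapped, and the change was 0.11 (SE 0.078, adjusted p = 0.334). The mean of both daf-4 probe sets did not pass (0.17, SE 0.064, limma adjusted p = 0.0664). Such means did pass for daf-1 (0.36, adjusted p = 0.00403), sma-6 (0.42, adjusted p = 0.00132) and lon-2 (0.36, adjusted p = 0.00322). For lon-2 and sma-6 the 2 probe sets deviated in opposite directions on wild type replicates 1 and 3, which cancelled in the mean. The sma-2 mean did not pass (0.15, adjusted p = 0.131).

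**Figure D2:**
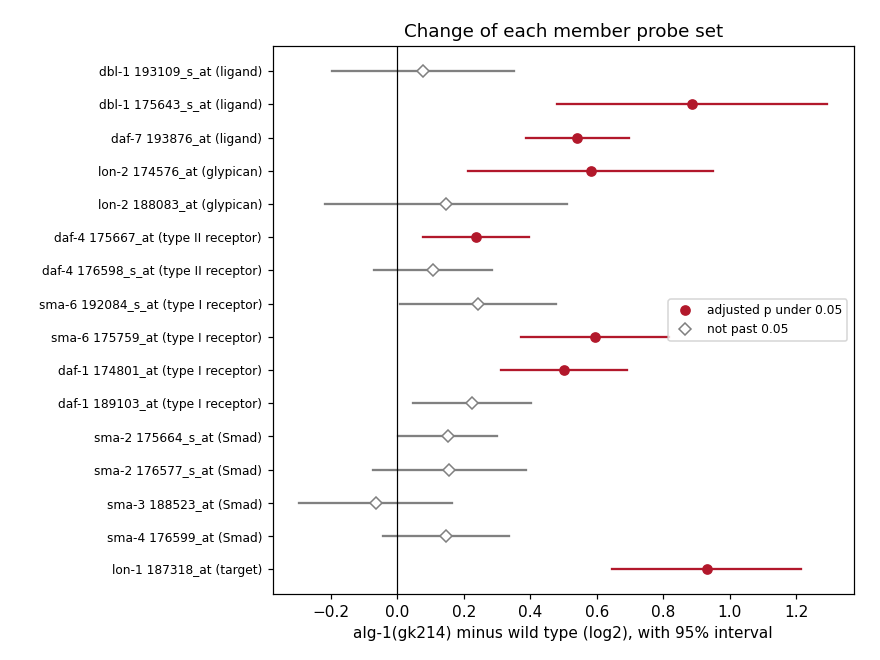
Mutant minus wild type change (log2) of each member probe set with its 95% interval from limma, in the order ligands, glypican, receptors, Smads and target. Filled points passed an adjusted p of 0.05; lon-1 (0.93) and dbl-1 175643_s_at (0.89) lie farthest right, and no Smad passed.

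The Smad genes of the body size pathway gave small changes, and none of their 4 probe sets passed. The receptor-regulated Smad gene sma-2 was read by 175664_s_at at 6.47, 6.39 and 6.41 in the mutant, against 6.25, 6.29 and 6.27 in the wild type. These groups did not overlap, and the change was 0.15 (SE 0.065, adjusted p = 0.108). The second sma-2 probe set, 176577_s_at, changed by 0.16 (SE 0.10, adjusted p = 0.277). The other receptor-regulated Smad gene, sma-3, read 7.36, 7.23 and 7.002 in the mutant, against 7.34, 7.29 and 7.16 in the wild type. The wild type range lay inside the mutant range, and sma-3 was the only member with a negative value, −0.06 (SE 0.10, adjusted p = 0.671), with a 95% interval of −0.29 to 0.17. The co-Smad gene sma-4 read 9.21, 9.14 and 9.36 in the mutant, against 9.05, 9.03 and 9.19 in the wild type. Its groups overlapped through wild type replicate 3, and the change was 0.15 (SE 0.083, adjusted p = 0.212), with a 95% interval of −0.04 to 0.34. The intervals leave room for rises up to these upper bounds.

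The target gene lon-1 rose by about as much as dbl-1 175643_s_at. Its probe set, 187318_at, read 9.95, 9.80 and 9.85 in the mutant, against 9.20, 8.66 and 8.95 in the wild type. The groups were far apart. The mean was 9.86 ± 0.07 in the mutant and 8.93 ± 0.27 in the wild type (SD, n = 3 each), a change of 0.93 (SE 0.13, limma adjusted p = 0.000585), or 1.91-fold. The value ranged from 0.79 to 1.06 when single arrays were left out, and it passed each time. The transcript that DBL-1 signalling is known to lower and the genes for its ligand and receptors were thus higher in the same samples, each by at least 1 probe set.

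In all 6 member genes with more than 1 probe set, both probe sets gave positive changes, though often only 1 passed. Of these 6 genes, 5 had exactly 1 past the threshold, 0 had both and 1 had neither. Among the 2981 genes with at least 2 probe sets, 24.5% (731) had exactly 1 of their 2 brightest past it, in either direction. Both passed in the same direction in 754 of them and neither in 1490. The 24.5% is therefore not a share of the genes with a call. The difference in change between the 2 probe sets was then tested over the arrays for these 6 genes with a two-sided exact permutation test, which with 3 arrays against 3 cannot go below p = 0.1. The exact test gave p = 0.1 for dbl-1 and daf-1, 0.2 for sma-6 and daf-4, 0.5 for lon-2 and 1 for sma-2, and after adjustment over the 6 the smallest was 0.3. On wild type replicate 3, the deviations of the 2 probe sets from the wild type means differed by 0.71 log2 for dbl-1, −0.80 for lon-2 and 0.40 for sma-6 (brighter minus dimmer). The other wild type arrays also showed such differences, of 0.63 for lon-2 on replicate 1 and −0.56 for dbl-1 on replicate 2. The largest such difference on a mutant array was −0.22, for sma-2. The part of RNA quality in this pattern was not tested.

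**Figure D3:**
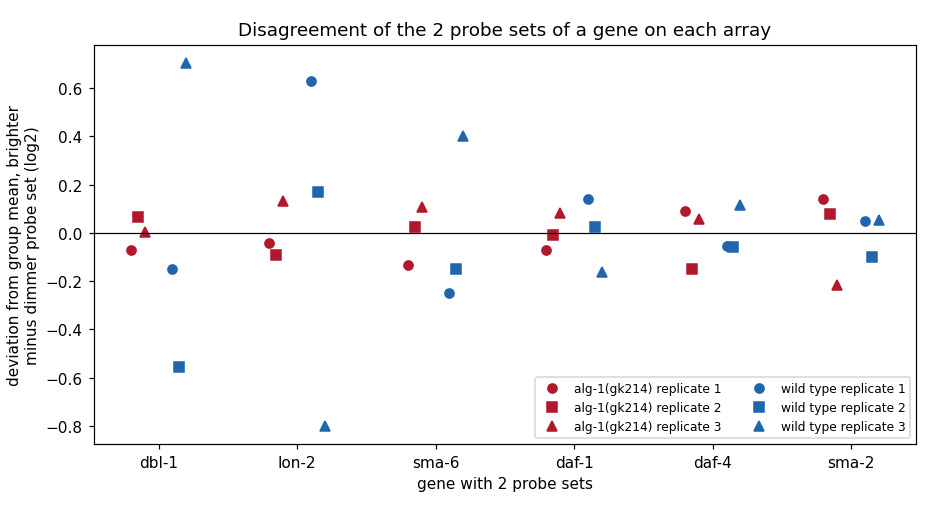
For each member gene with 2 probe sets, the deviation of the brighter from its group mean minus that of the dimmer (log2), on each array, mutant left of wild type. The mutant arrays lie between −0.22 and 0.14, while wild type replicate 3 reaches 0.71 for dbl-1 and −0.80 for lon-2, and wild type replicate 1 reaches 0.63 for lon-2.

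Scaling mattered for the size of these changes. With each array centred on its bacterial hybridization controls (hybridization control centring), the median change over all probe sets moved to 0.08, from −0.05 with the values as deposited. Of the 16 member probe sets, 11 were then higher and 0 lower, beside 21.5% and 9.76% of all probe sets. The probe sets gained were those of sma-6 192084_s_at (0.38), daf-1 189103_at (0.36), sma-2 175664_s_at (0.29, adjusted p = 0.0281) and sma-4 (0.28, adjusted p = 0.0479). Under this scaling sma-3 differed by 0.07 (adjusted p = 0.692), so its sign depended on the scaling.

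The lists of related genes that follow were compiled from general knowledge of the pathway, with each gene read from its brightest probe set. Like the members, they were chosen with earlier results of these data known. Over all 17118 genes, 14.4% were higher and 20.1% lower, with a median change of −0.06. Read the same way, the members gave 5 higher and 0 lower of 10, with a median of 0.24.

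Of 11 measured genes for other ligands and for proteins that act on ligands or receptors, 5 were higher and 1 lower, with a median of 0.29. The largest rise was that of tsp-14, which encodes a tetraspanin that promotes BMP signalling. It averaged 10.04 in the mutant and 8.59 in the wild type, a change of 1.45 (SE 0.11, limma adjusted p = 2.45e-05), and the other tsp-14 probe set by 1.56. The related tetraspanin gene tsp-12 rose by 0.43 (adjusted p = 0.0113). The ADAM10 protease gene sup-17 rose by 0.72 (adjusted p = 0.00029) and its other probe sets by 0.49 and 0.96. The gene for an AP-2 clathrin adaptor subunit, dpy-23, rose by 0.49, and the netrin receptor gene unc-40 by 0.35. The endocytic GTPase gene rab-10 fell by 0.25 (adjusted p = 0.0481), a call lost without wild type replicate 3 (adjusted p = 0.0997) and without each other array except wild type replicate 1 (adjusted p up to 0.154). It was also lost with hybridization control centring (−0.12, adjusted p = 0.378), with median centring (adjusted p = 0.0534) and with the replicate number as a block (adjusted p = 0.0648). The remaining TGF-beta ligand genes measured, tig-2 and unc-129, differed by −0.30 (adjusted p = 0.0549) and 0.15 (adjusted p = 0.211) and were named after their values were seen.

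Of 11 other Smads and Smad partners, 3 were higher and 1 lower, with a median of −0.01. The Smad gene daf-3, whose protein opposes DAF-7 signalling, averaged 0.47 log2 higher in the mutant (SE 0.10, limma adjusted p = 0.0064), with 0.37 for the other daf-3 probe set (adjusted p = 0.0108). Its partner gene daf-5, of the Ski and Sno family, differed by −0.04 (adjusted p = 0.647). The dauer pathway Smad genes daf-8 and daf-14 differed by −0.09 (adjusted p = 0.644) and −0.05 (adjusted p = 0.613). The Schnurri homolog gene sma-9, a partner of the body size Smads, rose by 0.30 (adjusted p = 0.018) and by 0.47 on its second probe set (adjusted p = 0.00447). The first of these was lost without mutant replicate 1 or 3 or wild type replicate 2, with adjusted p up to 0.0704. The Smad-related gene tag-68 rose by 0.30 (adjusted p = 0.0396), a call lost without each array except wild type replicate 3, with adjusted p up to 0.137. It was also lost with quantile normalization (adjusted p = 0.0527), and the other tag-68 probe set differed by 0.20 (adjusted p = 0.0934). The gene bra-2, related to a BMP receptor-associated protein, fell by 0.36 (adjusted p = 0.00517), but did not pass with hybridization control centring (−0.22, adjusted p = 0.0685). Values for mab-31 and bra-1 were −0.21 and 0.22, and neither passed.

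Genes that act before daf-7 in sensory neurons, together with kinases of these pathways, gave 1 higher and 0 lower of 10, with a median of 0.05. The one that rose was kin-29, a salt-inducible kinase gene with roles in body size and dauer entry, by 0.45 (SE 0.087, limma adjusted p = 0.00393), while its second probe set differed by 0.16 (adjusted p = 0.168). The Gq gene egl-30 had 0.30 (adjusted p = 0.05004, just short of the threshold). The guanylyl cyclase gene daf-11 differed by 0.11 and the channel gene tax-2 by −0.13, with signals at percentiles 8.58 and 7.38, where changes are hard to detect.

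Of 9 body size genes outside the cascade, 5 were higher and 0 lower, with a median of 0.31. The cuticle collagen gene lon-3 averaged 11.2 in the mutant and 8.69 in the wild type, a change of 2.49 (adjusted p = 4.44e-07). It was followed by lon-8 (1.499), which encodes a secreted epidermal protein, mup-4 (0.74), cbp-1 (0.42) and the MAP kinase gene sma-5 (0.31, adjusted p = 0.0457). The call of cbp-1 was lost without mutant replicate 1 or 3 (adjusted p up to 0.0656), and that of sma-5 without any 1 mutant array or wild type replicate 1 (adjusted p up to 0.147). With quantile normalization the sma-5 call was also lost (adjusted p = 0.0725). The second cbp-1 probe set differed by 0.21 and did not pass (adjusted p = 0.0565). The spectrin gene sma-1 had 0.30 (adjusted p = 0.0556).

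Genes placed downstream of DBL-1 or DAF-7 went both ways, with 12 higher and 3 lower of 22 and a median of 0.32. The cuticle collagens split. The collagen gene rol-6 rose by 2.71 (adjusted p = 2.7e-07), whereas col-142 averaged 7.88 in the mutant and 9.84 in the wild type, and so fell by 1.96 (adjusted p = 3.63e-06), and col-141 fell by 0.86 (adjusted p = 0.00019). The antimicrobial genes cnc-4 and lys-7 rose by 1.65 and 1.35. The nuclear receptor gene daf-12, which acts after both TGF-beta and insulin signals in the dauer decision, rose by 1.74 (adjusted p = 1.1e-05).

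**Figure D4:**
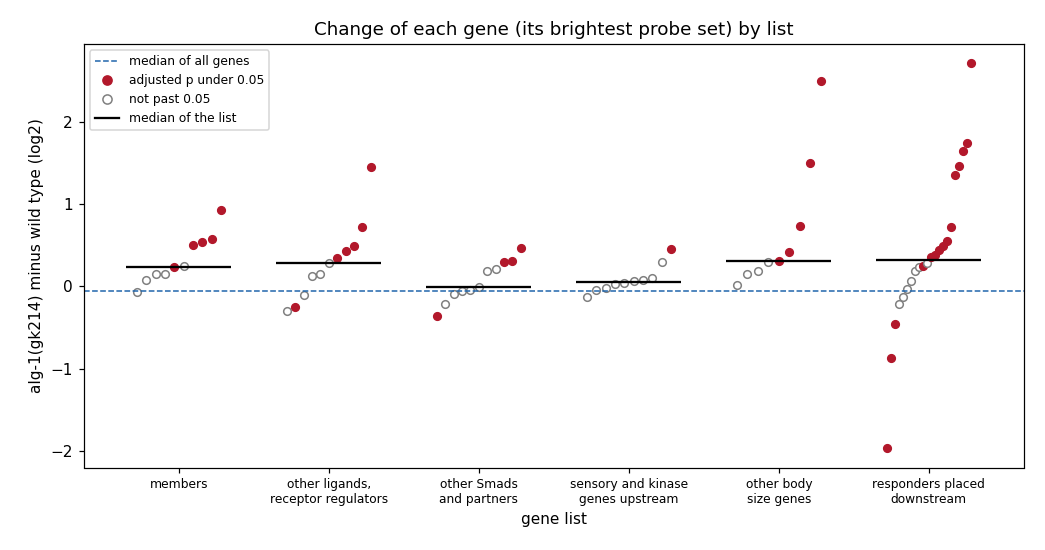
Mutant minus wild type change (log2) of every measured gene in the members and in each related list, with the list median as a black line and the median of all genes dashed. Filled points passed an adjusted p of 0.05; the downstream list spreads from −1.96 (col-142) to 2.71 (rol-6), and the sensory and kinase list runs from −0.13 (tax-2) to 0.45 (kin-29).

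Markers of tissues in which these genes act were examined in the same fit, to be read against the 14.4% of all genes that were higher and the 20.1% that were lower. Of 10 epidermal and seam markers, 6 were higher and 0 lower, and their summed signal (log2 of the sum) was 12.4 to 12.6 on the mutant arrays and 11.4 to 11.6 on the wild type arrays. The cuticle collagen gene dpy-7, at 11.2 in the mutant and 8.996 in the wild type, weighed most in this sum. The 4 epidermal markers that did not pass differed by −0.12 to 0.04. Of 12 general neuron markers, 5 were higher and 0 lower, with summed signals of 12.99 to 13.06 in the mutant and 12.66 to 12.73 in the wild type. Of 6 markers of cholinergic motor neurons, 1 was higher and 0 lower, with overlapping summed signals of 8.89 to 8.91 in the mutant and 8.77 to 8.98 in the wild type. Of 6 genes listed for the ASI neurons, where daf-7 is made, 1 was higher and 0 lower, with a median change of −0.04 and summed signals of 8.46 to 8.53 in the mutant and 8.10 to 8.21 in the wild type. The one that rose, named after its values were seen and also counted in the downstream list, was the insulin-like gene daf-28 (0.55, adjusted p = 0.000385), and ins-6 had 0.29 (adjusted p = 0.0644). The markers gpa-4, str-3, srg-2 and sra-6 were all below the 25th percentile of signal and differed by −0.10, −0.11, −0.06 and −0.02, so that the difference in summed signal came from daf-28 and ins-6. Germline markers gave 0 higher and 11 lower of 12, with summed signals of 12.20 to 12.31 in the mutant and 12.84 to 12.97 in the wild type, and sperm markers gave 0 higher and 8 lower of 10, with 9.82 to 9.93 in the mutant and 10.55 to 10.64 in the wild type. Pharyngeal markers gave 1 higher and 4 lower of 6, with 12.05 to 12.07 in the mutant and 12.60 to 12.71 in the wild type. Intestinal markers gave 2 higher and 3 lower of 9, with 15.17 to 15.19 in the mutant and 15.10 to 15.21 in the wild type. Body wall muscle markers gave 0 higher and 0 lower of 9, with 14.89 to 14.94 in the mutant and 14.95 to 14.99 in the wild type. All marker counts read each gene from its brightest probe set, and some dimmer muscle probe sets did pass as lower. They were probe sets of lev-11 (−0.89, −0.56, −0.30 and −0.23) and of unc-22 (−0.34). The part of these tissue differences in the members' changes was not tested.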

How the data were processed

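The authors deposited a log2 signal for each probe set on each array. The submitters' processing notes name Affymetrix Power Tools, while its version and the background, normalization and summary methods it ran are not given in the sources read. Values spanned 3.14 to 14.9, from which the log2 scale was inferred, and array medians were 6.01 to 6.05. The 77 control probe sets were left out, which leaves 22548. Platform symbols were updated by gene ID through a RefSeq table of assembly WBcel235 (20701 probe sets). Of all probe sets, 20766 had 1 symbol, 887 several and 895 none, and genes were named only from the first kind. Endings _s_at and _x_at mark probes that match several transcripts.

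Mutant minus wild type was fitted with limma 3.58.1 in R 4.3.3 (lmFit, eBayes), two-sided, adjusted over all probe sets. No detection calls were used. Precision is limited by the number of arrays. The members and lists were chosen with earlier results of these data known. Named by rule were all members, alg-1, up to 6 genes of each related list by smallest p, daf-3, daf-5, daf-8 and daf-14, and defining markers near background. Outside this rule, tig-2, unc-129, daf-28, ins-6, dpy-7, ajm-1, elt-6, lev-11 and unc-22 were named after their values were seen. On simulated data for this comparison with 22548 probe sets, limma found 49.3% of 67 probe sets shifted by 0.5 log2, 94% of 67 shifted by 1 log2 and 100% of 66 shifted by 2 log2, with 8 false among 170 calls. Far fewer probe sets were shifted than the 7591 that passed in the real data, which makes the adjusted threshold stricter in the simulation. Both groups were also simulated with the same spread. These shares therefore do not give the power of the real comparison. The alternatives were quantile normalization, median centring, hybridization control centring, filters on dim probe sets, array weights, a robust prior with an intensity trend, only unshared probe sets, an adjusted p of 0.01, a block for the replicate number, leaving out each array, and gene means.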

Additional observations from a re-analysis of the deposited data

How the results depend on the processing

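Of the 16 member probe sets, 7 were higher and 0 lower with the values as deposited. The count higher was 11 with hybridization control centring, and 5 to 8 when single arrays were left out, while 0 were lower under each alternative run. Hybridization control centring subtracts 1 value per array, so it moved the change of every probe set by the same amount. Examples are daf-7 (0.54 to 0.68) and lon-1 (0.93 to 1.06). The gain in calls was not tested further. A threshold of 0.01 left 5. Across all probe sets, 7591 passed (3340 higher, 4251 lower), 4767 at a threshold of 0.01 (2213 and 2554), 4715 of the 15837 without shared probe sets (2171 and 2544), and 2201 were lower with hybridization control centring. Leaving out single arrays gave 5443 to 7833. Of 63 genes in the related lists, 31 passed (26 higher, 5 lower), 20 without shared probe sets (17 and 3, of 41 genes), and 2 were lower with hybridization control centring. Same-numbered mutant and wild type arrays deviated together with correlations of 0.21, 0.13 and 0.08, so the numbers were not taken to pair the samples. Every mutant array correlated best with its own number, but wild type replicate 3 did not. With the replicate block, 7 member probe sets passed (7766 of all), and no member call changed. The number of arrays limits all calls at small changes.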

Other observations

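The split between probe sets on wild type replicate 3 reached beyond the TGF-beta genes. Among 2981 genes with at least 2 probe sets, the 2 brightest deviated from their group means by amounts more than 0.4 log2 apart in 7.75% of genes on wild type replicate 3, in 2.65% on wild type replicate 1 and in 0.704% on wild type replicate 2. On the mutant arrays this share was 0.101% to 0.201%. The limit of 0.4 was chosen after the members' values were seen.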
